A study of Mus musculus with 6 samples.

Results

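Type 2 immunity is represented here by 10 genes: the cytokine genes *Il4*, *Il5* and *Il13*, the receptor genes *Il5ra* and *Il1rl1*, and the eosinophil genes *Siglecf*, *Prg2*, *Epx*, *Ccr3* and *Alox15*. They were taken from the gene table by symbol, and all 10 were among its 21358 entries. RNA came from whole B16-F10 tumors, a murine melanoma line grown under the skin of C57BL/6 mice. All mice were sublethally irradiated and received adoptive cell transfer (ACT) of activated splenocytes from pmel-1 mice, in which a transgenic T cell receptor directs the CD8 T cells against the melanoma antigen gp100. The ACT + IL-2 group then received IL-2 injections, and the ACT + NKTR-214 group received NKTR-214, a pegylated IL-2 prodrug with lasting action. By the paper's schedule, dose, route and frequency also differed between the drugs, and both were given again before the harvest. Tumors of 3 mice per group were harvested at day 12 and gave 1 library each. The transferred cells were activated with a gp100 peptide and carried 1 transgenic specificity in their CD8 T cells, and the host was irradiated, which limits the groups as a model of a natural type 2 response.

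IL-4, IL-5 and IL-13 are made mainly by Th2 cells and type 2 innate lymphoid cells. IL-5 drives the growth and survival of eosinophils, and IL-13 and IL-4 induce tissue cells to release eotaxins, the chemokines that draw eosinophils through the receptor CCR3. IL-33, released by stressed tissue, acts on cells that carry its receptor ST2, the product of *Il1rl1*. Eosinophils store major basic protein and eosinophil peroxidase in their granules, and they have been described in several tumors and after IL-2 treatment.

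*Il5*, *Il13*, *Il1rl1*, *Siglecf*, *Prg2* and *Alox15*, 6 of the 10 genes, were higher under NKTR-214 than under IL-2 by limma at an adjusted p under 0.05. None was lower, and all 7 tested differences were positive. Over all 14172 entries with a mean FPKM of at least 0.1, 20.7% were higher and 8.28% were lower. *Il4*, *Il5ra* and *Epx* lay below that minimum, and *Ccr3* was tested but did not pass the threshold. FPKM counts fragments relative to the exon length of the gene and to the mapped fragments of the library. It does not remove differences in RNA composition between tumors, and the FPKM of all entries summed to between 176420 and 246514 per tumor. *Il5*, *Il13*, *Siglecf*, *Prg2* and *Ccr3* reached the minimum only through the ACT + NKTR-214 tumors, so the count of 6 describes them and does not support a difference. In a fit with no minimum, which tested all 10 genes among 17113 entries, 8 were higher, against 15.1% of all entries. The additional 2 were *Epx* and *Ccr3*.

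The 3 cytokine genes lie in 1 cluster on chromosome 11 of GRCm38. *Il4* spans chr11:53602982-53618669 and *Il13* chr11:53631324-53634702, both on the minus strand, and *Il5* spans chr11:53720794-53725106 on the plus strand. The 250 bases before their starts are shown from RefSeq (GRCm38.p6), because *Il5* and *Il13* passed the threshold and *Il4*, next to them, was barely detected. Capitals mark the letters AGATA or TGATA on either strand, the core that GATA factors such as GATA3 recognise.
Il4 chr11:53618666-53618915, minus strand: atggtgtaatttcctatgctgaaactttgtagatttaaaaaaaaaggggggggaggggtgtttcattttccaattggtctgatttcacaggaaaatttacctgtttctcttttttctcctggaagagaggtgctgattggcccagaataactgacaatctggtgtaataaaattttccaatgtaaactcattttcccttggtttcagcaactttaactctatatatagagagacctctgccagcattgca
Il13 chr11:53634703-53634952, minus strand: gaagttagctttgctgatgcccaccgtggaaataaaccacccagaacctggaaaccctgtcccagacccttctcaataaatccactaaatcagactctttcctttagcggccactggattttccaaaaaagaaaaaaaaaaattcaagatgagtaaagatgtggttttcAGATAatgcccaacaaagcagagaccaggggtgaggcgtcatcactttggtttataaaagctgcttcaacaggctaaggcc
Il5 chr11:53720544-53720793, plus strand: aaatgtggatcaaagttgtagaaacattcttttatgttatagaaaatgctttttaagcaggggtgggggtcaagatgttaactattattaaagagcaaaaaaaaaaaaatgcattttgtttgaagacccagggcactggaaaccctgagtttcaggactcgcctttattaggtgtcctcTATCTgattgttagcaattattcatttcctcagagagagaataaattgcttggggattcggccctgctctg
The *Il13* window held 1 such match, 81 bases before the start, and the *Il5* window held 1 at 71 bases. The *Il4* window shown held 0, and a second *Il4* window, before an inner start, held 2. In all, 8 of the 10 genes had an entry in the RefSeq promoter table, with 10 windows between them. The GATA letters stood in 8 of these windows, and in 40.0% of all 32851 windows of the same length. The STAT5-type letters TTCNNNGAA, searched on both strands, stood in 0 of the 10 windows and in 7.02% of all. The STAT6-type letters TTCNNNNGAA stood only in the *Il4* window shown, against 5.85% of all windows, and no GATA match overlapped them. *Prg2* and *Alox15* had no entry.

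Among the cytokines, *Il13* had the widest separation. *Il13* FPKM was 0.0695, 0 and 0 in ACT + IL-2 tumors 1, 2 and 3 and 0.806, 0.918 and 1.01 in ACT + NKTR-214 tumors 1, 2 and 3. Every ACT + NKTR-214 tumor stood above every ACT + IL-2 tumor, which was true of 27.1% of all entries tested. On the log2(FPKM + 1) scale *Il13* was higher by 0.90 ± 0.09 (SE, limma adjusted p = 3.00e-06). All log2 differences given here, other than those of ratios between genes, are on this scale, on which a change at a low level comes out too small.

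*Il5* FPKM was 0.0820, 0.0854 and 0.0624 in the ACT + IL-2 tumors and 0.423, 0.749 and 0.467 in the ACT + NKTR-214 tumors. The ACT + IL-2 values were nearly level, and the highest value was that of ACT + NKTR-214 tumor 2. The difference on the log2 scale was 0.52 ± 0.10 (SE, limma adjusted p = 0.000752). In GENCODE vM21, 417 of the 1537 exon bases of *Il5* (27.1%) overlap the antisense gene *Gm12214*. The strand setting of the counting is not given in the sources used here, so reads from the shared bases cannot be told apart. The other 9 genes share no exon base with another gene.

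*Il4* FPKM was 0, 0 and 0.0814 in the ACT + IL-2 tumors and 0, 0.210 and 0.143 in the ACT + NKTR-214 tumors. The groups overlapped, since 1 ACT + NKTR-214 tumor was listed at 0. In the fit with no minimum the difference was 0.12 on the log2 scale and did not pass the threshold (limma adjusted p = 0.272).

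The plot of values by tumor shows the 10 genes side by side.

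**Figure D1:**
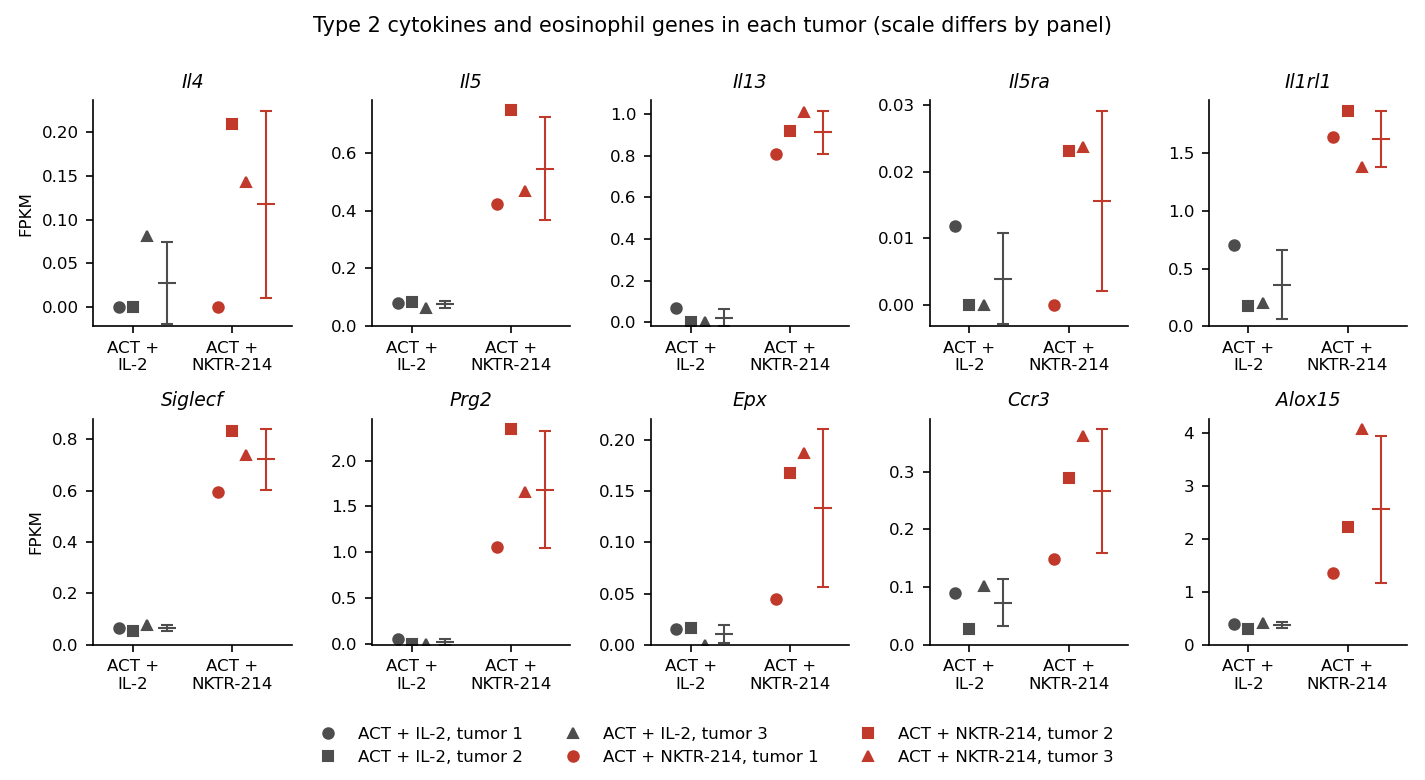
FPKM (vertical axis, linear, scale differs by panel) of the 10 genes in each of the 6 tumors. Symbols mark tumors 1, 2 and 3 of each group, and the bar beside them is the mean ± SD (n = 3). The groups do not overlap in 8 panels, where all ACT + NKTR-214 tumors are higher, as in 19.4% of all 21358 entries; they overlap in *Il4* and *Il5ra*.

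None of the 5 other genes tested around the cytokine cluster passed the threshold. *Rad50*, which lies between *Il13* and *Il5* and encodes a DNA repair protein, differed by -0.35 ± 0.15 (SE, limma adjusted p = 0.0813). *Kif3a*, a kinesin gene 1015 bases from *Il4*, differed by -0.42 ± 0.16 (SE, limma adjusted p = 0.0575). *Irf1*, an interferon response gene 44.9 kb beyond *Il5*, differed by -0.09 ± 0.17 (SE, limma adjusted p = 0.724). Neither *Sept8* (-0.17) nor *Slc22a5* (0.19) passed the threshold.

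**Figure D2:**
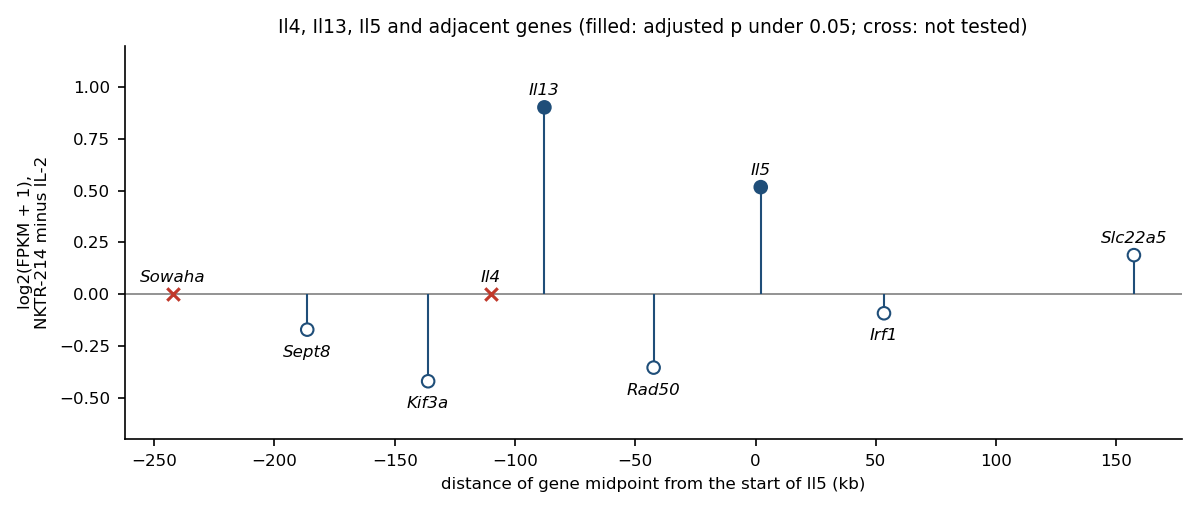
Difference of log2(FPKM + 1), ACT + NKTR-214 minus ACT + IL-2 (vertical axis), against the distance in kb of each gene's midpoint from the start of *Il5*. Filled points, *Il13* (0.90) and *Il5* (0.52), passed the limma threshold, open points did not, and crosses mark the untested *Il4* and *Sowaha*.

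Of the receptor genes, *Il1rl1*, which encodes the IL-33 receptor ST2, was the more abundant. *Il1rl1* FPKM was 0.704, 0.173 and 0.202 in the ACT + IL-2 tumors and 1.64, 1.86 and 1.38 in the ACT + NKTR-214 tumors. ACT + IL-2 tumor 1 stood above its group, yet below all 3 ACT + NKTR-214 tumors. The log2 difference was 0.97 ± 0.14 (SE, limma adjusted p = 9.11e-05). Both genes flanking *Il1rl1* on chromosome 1 rose as well: *Il18r1*, an IL-18 receptor gene 137 bases beyond its end, by 2.72 (limma adjusted p = 6.19e-07), and *Il1rl2*, the IL-36 receptor gene, by 1.39 (limma adjusted p = 4.37e-05).

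*Il5ra*, which encodes the IL-5-binding chain of the IL-5 receptor, was close to the limit of detection. *Il5ra* FPKM was 0.0118, 0 and 0 in the ACT + IL-2 tumors and 0, 0.0231 and 0.0237 in the ACT + NKTR-214 tumors. The groups overlapped, and with no minimum the log2 difference was 0.02 (limma adjusted p = 0.611).

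The granule genes *Prg2* and *Epx* were nearly undetected in the ACT + IL-2 tumors. *Prg2*, which encodes major basic protein, had an FPKM of 0.0498, 0 and 0 in the ACT + IL-2 tumors and 1.06, 2.34 and 1.65 in the ACT + NKTR-214 tumors. The lowest ACT + NKTR-214 tumor was far above the highest ACT + IL-2 tumor. The log2 difference of *Prg2* was 1.37 ± 0.14 (SE, limma adjusted p = 3.16e-06). *Epx*, the eosinophil peroxidase gene, was much lower, at 0.0155, 0.0162 and 0 FPKM in the ACT + IL-2 tumors and 0.0451, 0.167 and 0.187 FPKM in the ACT + NKTR-214 tumors. The *Epx* groups did not overlap. With no minimum the log2 difference of *Epx* was 0.16 (limma adjusted p = 0.0479).

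*Siglecf*, a sialic acid-binding lectin of eosinophils that alveolar macrophages and some tumor neutrophils also carry, had an FPKM of 0.0667, 0.0521 and 0.0761 in the ACT + IL-2 tumors and 0.597, 0.833 and 0.737 in the ACT + NKTR-214 tumors. The spread within each group was small beside the gap between them. *Siglecf* was higher by 0.69 ± 0.09 on the log2 scale (SE, limma adjusted p = 3.43e-05). Its neighbour *Siglecg*, a related lectin gene of B cells, rose by 0.43 (limma adjusted p = 0.00436), and 0.206% of the 50-base windows of *Siglecf* transcripts are shared with other genes, *Siglecg* among them.

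*Alox15*, a lipoxygenase that oxidises arachidonic acid in eosinophils and in some macrophages, had the highest mean of the 10 genes in the ACT + NKTR-214 tumors. *Alox15* FPKM was 0.398, 0.307 and 0.415 in the ACT + IL-2 tumors and 1.36, 2.24 and 4.09 in the ACT + NKTR-214 tumors. The ACT + NKTR-214 values spread widely, with tumor 3 highest, but did not overlap those of ACT + IL-2. The log2 difference was 1.30 ± 0.20 (SE, limma adjusted p = 0.000136). Its neighbour *Alox12* differed by -0.19 and did not pass the threshold (limma adjusted p = 0.140).

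*Ccr3*, the eotaxin receptor gene, had an FPKM of 0.0899, 0.0268 and 0.102 in the ACT + IL-2 tumors and 0.149, 0.289 and 0.361 in the ACT + NKTR-214 tumors. The groups did not overlap, although the lowest ACT + NKTR-214 tumor was close to the highest ACT + IL-2 tumor. The log2 difference was 0.24 ± 0.09 (SE, limma adjusted p = 0.0571). It passed the threshold without ACT + NKTR-214 tumor 1 (0.30, limma adjusted p = 0.0299), and under quantile normalization it was 0.13 (limma adjusted p = 0.224). Both chemokine receptor genes beside *Ccr3* on chromosome 9, *Ccr1* (2.27, limma adjusted p = 9.22e-07) and *Ccr2* (2.15, limma adjusted p = 8.98e-06), rose.

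These levels are low, and the reads behind them could be recovered, because the FPKM values of a gene step by what 1 read is worth. Of 2271 low entries, 2262 (99.6%) came out as whole reads in every tumor within 0.05 reads. Recovered library totals were about 23800000, 22900000 and 20900000 reads in ACT + IL-2 tumors 1, 2 and 3 and 24700000, 24300000 and 23700000 reads in ACT + NKTR-214 tumors 1, 2 and 3. The totals rest on 240 of 406 entries with 1 annotated transcript (59.1%), whose implied totals lay close together. Summed over the 3 tumors of a group and divided by depth, the reads give ratios whose exact 95% intervals cover counting error only, not the spread between mice.

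For *Prg2*, 1 read in the ACT + IL-2 tumors stood against 103 reads in the ACT + NKTR-214 tumors, a ratio of 95.7 (interval 16.8 to 3817). For *Il13*, 2 reads stood against 80, a ratio of 37.2 (9.96 to 312). *Epx* had 2 reads against 26, a ratio of 12.1 (3.02 to 105). These 3 ratios have wide intervals because the ACT + IL-2 tumors gave so few reads.

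*Siglecf* had 11 reads against 132, a ratio of 11.2 (6.03 to 22.9), and *Il5* had 8 against 61, a ratio of 7.09 (3.38 to 17.1). *Alox15* had 61 reads against 448, a ratio of 6.83 (5.21 to 9.07), and *Ccr3* had 16 against 63, a ratio of 3.66 (2.09 to 6.79). *Il1rl1* was the best counted, with 177 reads against 841, a ratio of 4.42 (3.75 to 5.22). The exon length implied for *Il1rl1*, 7096 bases, was near its 6894 annotated exon bases but not near a single transcript (nearest 5302). Counting error alone leaves the order of *Siglecf*, *Il5* and *Alox15* unresolved, since their intervals overlap.

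*Il4*, with 1 read against 5 (ratio 4.65, interval 0.52 to 220), and *Il5ra*, with 1 read against 4 (ratio 3.72, interval 0.368 to 183), had intervals that included equal levels. A difference in these genes was not detectable at this depth.

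**Figure D3:**
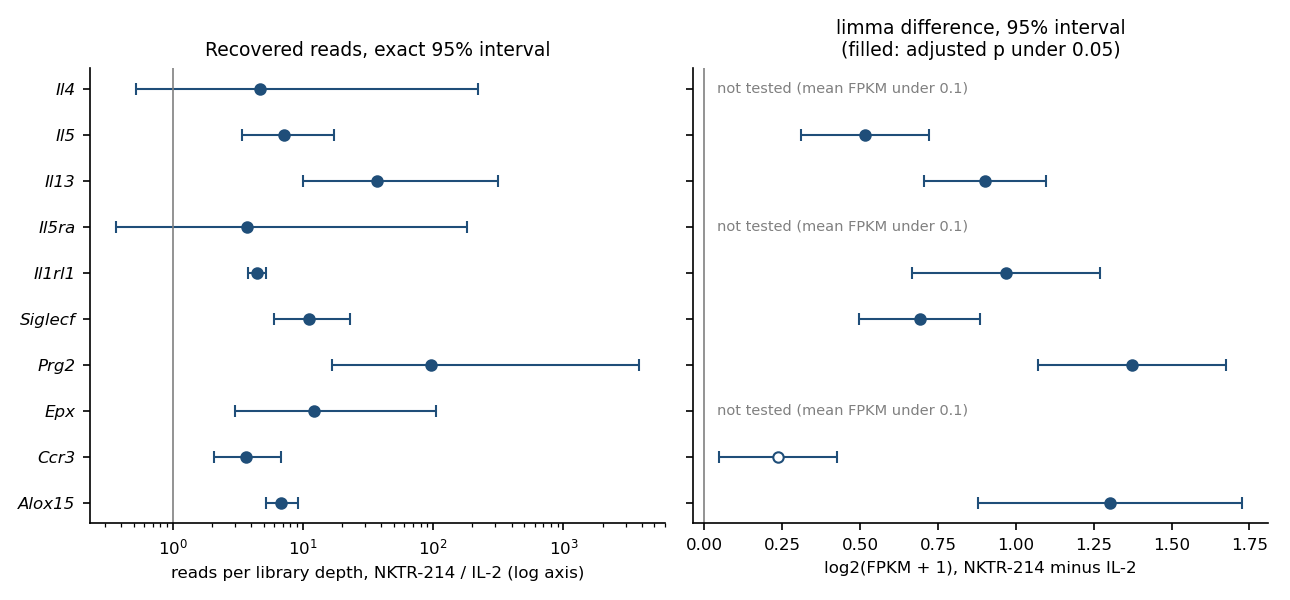
Left, ratio of recovered reads per library depth, ACT + NKTR-214 over ACT + IL-2, on a log axis, with exact 95% intervals of counting error for the 10 genes. Right, limma difference of log2(FPKM + 1) with unadjusted 95% intervals over the tumors (n = 3 per group) for the 7 tested genes, filled where the adjusted p was under 0.05; *Ccr3* is the open point. The intervals on the left include equal levels only for *Il4* and *Il5ra*.

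Bulk tumor RNA cannot tell more cells of a type from more RNA per cell. *Ptprc*, which encodes the pan-leukocyte protein CD45, was 17.7, 8.79 and 7.57 FPKM in the ACT + IL-2 tumors and 66.5, 74.6 and 40.5 FPKM in the ACT + NKTR-214 tumors, a log2 difference of 2.36 ± 0.26 (SE, limma adjusted p = 6.10e-06). Each of the 7 tested genes was therefore also set against *Ptprc*, as a difference of log2 ratios with an offset of 0.1 FPKM. With 3 tumors against 3, the smallest p that an exact permutation test allows is 0.1, so none of the 7 comparisons could pass 0.05.

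The values of *Prg2* and *Il13* per *Ptprc* did not overlap between the groups and were higher in the ACT + NKTR-214 tumors, which held for 1.98% of the 14171 tested entries divided by *Ptprc*. Both genes reached the minimum only through those tumors and gave 1 and 2 reads in ACT + IL-2, so nothing is drawn from the count of 2. *Prg2* stood at 2.81, 0 and 0 FPKM per 1000 FPKM of *Ptprc* in the ACT + IL-2 tumors and at 15.9, 31.4 and 40.8 in the ACT + NKTR-214 tumors, a log2 ratio difference of 1.44 (two-sided exact permutation p = 0.1). *Il13* stood at 3.93, 0 and 0 per 1000 and at 12.1, 12.3 and 25.0, a difference of 0.62 (two-sided exact permutation p = 0.1). Against the T cell gene *Cd3e* in place of *Ptprc*, the log2 ratio differences were -0.02 for *Prg2* and -0.83 for *Il13*. An offset of 1, above nearly every FPKM value of *Il13* and of the order of those of *Prg2*, compresses these genes but not *Ptprc*, and gave -1.46 for *Il13* and -0.98 for *Prg2*.

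The other 5 genes overlapped between the groups once divided by *Ptprc*. *Il1rl1* averaged 28.7 per 1000 in ACT + IL-2 and 27.9 in ACT + NKTR-214 (log2 ratio difference -0.37, two-sided exact permutation p = 0.2). *Alox15* averaged 37.4 and 50.5 (-0.09, exact permutation p = 1), with 101 in ACT + NKTR-214 tumor 3. *Siglecf* averaged 6.58 and 12.8 (-0.15, exact permutation p = 0.9) and *Il5* 7.53 and 9.31 (-0.62, exact permutation p = 0.3). *Ccr3* averaged 7.22 and 5.01 (-1.39, exact permutation p = 0.2). For *Siglecf*, *Il5* and *Alox15* the differences of the plain means and the log2 ratio differences have opposite signs. For *Ccr3*, *Il5* and *Siglecf*, the offset is about as large as their ACT + IL-2 values or larger. With the macrophage gene *Adgre1* as the reference, the differences were positive for all 5 genes, among them *Il1rl1* (1.10) and *Ccr3* (0.076), so no direction is given for any of them.

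**Figure D4:**
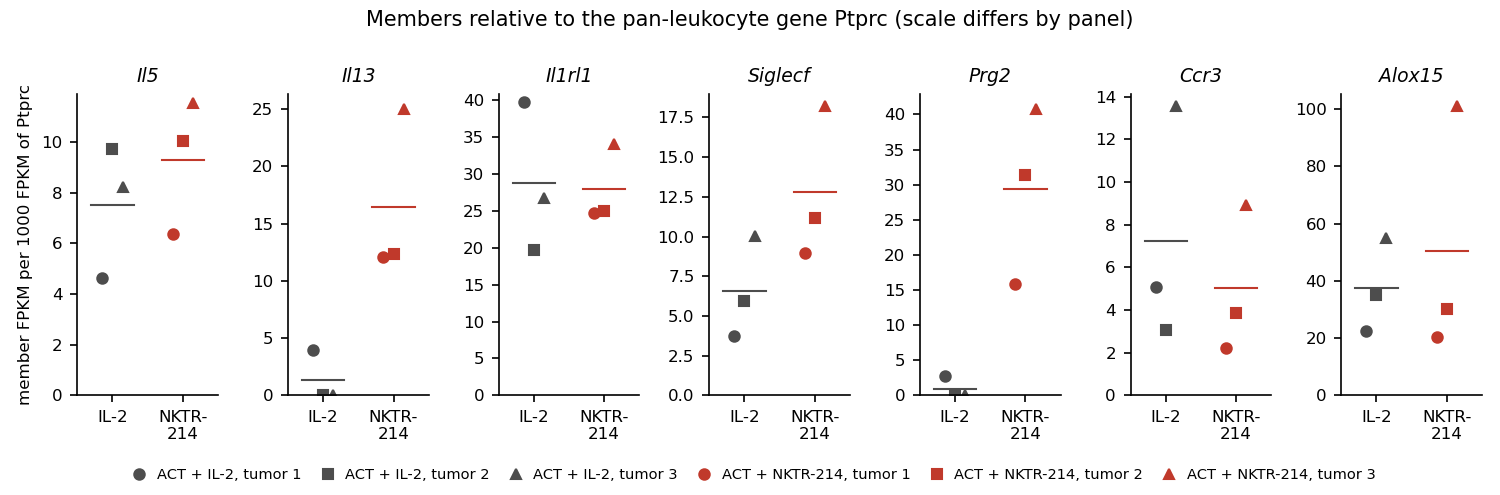
FPKM of the 7 tested genes per 1000 FPKM of *Ptprc* (vertical axis, linear from 0, scale differs by panel) in each tumor; symbols mark tumors 1, 2 and 3 and lines the group means. The groups are apart in *Il13* and *Prg2* and overlap in the other 5 panels.

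The 7 tested genes were not all highest in the same ACT + NKTR-214 tumor. *Il5*, *Il1rl1*, *Siglecf* and *Prg2* were highest in ACT + NKTR-214 tumor 2, and *Il13*, *Ccr3* and *Alox15* in tumor 3. Such an order can rest on few reads: *Il13* had 24, 27 and 29 in ACT + NKTR-214 tumors 1, 2 and 3. As a description, Euclidean distances between profiles z-scored over the 6 tumors were smallest for *Siglecf* and *Prg2* (0.29) and largest for *Il1rl1* and *Ccr3* (1.495). *Ccr3* and *Alox15* were 0.55 apart. All these distances also hold the gap between the groups, so they do not describe variation within a group alone.

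Among 11467 candidate entries outside the lists used here, with a mean FPKM of at least 1, the profiles most like each gene were as follows. *Il13* was nearest to *Slc7a2* (distance 0.07), *Plscr2* (0.16) and *Ltb4r1* (0.16), and *Siglecf* to *Lta* (0.15), *Gzmc* (0.18) and *Ltb4r1* (0.19). *Prg2* was nearest to *Lta* (0.30), *Ear12* and *Ear3* (0.31 each). *Ear12* and *Ear3* are eosinophil-associated ribonuclease genes with identical values, whose reads the counting may not have told apart.

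*Il1rl1* was nearest to *Il6st* (0.09), *Tagln2* (0.12) and *Tmem176a* (0.12), and *Il5* to *Pilrb1* (0.31), *Tuba8* (0.31) and *Plxdc1* (0.33). *Ccr3* was nearest to *Zfhx3* (0.26), *Tmem179* (0.38) and *Isg20* (0.45), and *Alox15* to *Isg20* (0.43), *Cdsn* (0.53) and *Zfhx3* (0.53). Close profiles were common for the first 5 of these genes, with 1287 to 2277 candidates within a distance of 1, and rarer for *Ccr3* (121) and *Alox15* (112).

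The wider pathway was followed in lists of other genes, read beside the 20.7% of all entries that were higher and their median difference of 0.045. Upstream, 5 of 9 type 2 inducers and related cytokines were tested, of which 2 rose and 0 fell, with a median of 0.13. *Il33*, the ligand of ST2, was 4.38, 2.10 and 2.63 FPKM in the ACT + IL-2 tumors and 12.6, 15.2 and 7.79 FPKM in the ACT + NKTR-214 tumors. All 3 ACT + NKTR-214 tumors were higher, by 1.67 ± 0.23 (SE, limma adjusted p = 5.08e-05). *Csf2*, which encodes the eosinophil survival factor GM-CSF, rose by 0.76 (limma adjusted p = 7.22e-05). *Tslp* (-0.01) and *Areg* (-0.12) did not pass the threshold, and *Il9* and *Il31* were listed at 0 in all 6 tumors.

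Of 18 receptor chains and signal transducers of type 2 and related cytokines, 15 rose and 0 fell, with a median of 0.84. The list reaches beyond IL-4, IL-13, IL-5, IL-33 and TSLP, since it holds *Il3ra* of the IL-3 receptor (limma adjusted p = 0.000104) and *Csf2ra* of the GM-CSF receptor (limma adjusted p = 5.92e-05), both among the 15, and *Il17rb* of the IL-25 receptor (limma adjusted p = 0.0816), which did not pass. *Csf2rb*, the beta chain that IL-5 receptors share with those of IL-3 and GM-CSF, rose by 2.28 (limma adjusted p = 1.52e-06) and its paralog *Csf2rb2* by 2.29 (limma adjusted p = 1.34e-06). These are closely related copies, so reads may be split between them. *Stat5a* (0.17) and *Stat5b* (0.06) did not pass the threshold.

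Of 14 eosinophil-attracting chemokines and lipid mediator genes, 12 rose and 0 fell, with a median of 1.36. *Ccl24*, which encodes eotaxin-2, a ligand of CCR3, was 0.163, 0.170 and 0.223 FPKM in the ACT + IL-2 tumors and 6.67, 8.79 and 11.6 FPKM in the ACT + NKTR-214 tumors. The groups were far apart, by 3.05 ± 0.17 (SE, limma adjusted p = 1.12e-08), and the read ratio was 48.9 (interval 29.9 to 86.0). *Ccl17*, whose receptor CCR4 marks Th2 cells, rose by 3.35 (limma adjusted p = 1.03e-07). *Ccl11*, the eotaxin-1 gene, named after its values were seen, rose by 2.26 (limma adjusted p = 4.08e-06). *Ptgdr2*, a prostaglandin D2 receptor gene of type 2 cells (0.10), and *Hpgds*, a prostaglandin D2 synthase gene (-0.05), did not pass the threshold.

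Of 13 genes induced by IL-4 and IL-13, which include *Ccl24*, 12 were tested, 11 rose and 0 fell, with a median of 2.25. *Chil3*, a chitinase-like protein gene of alternatively activated macrophages, was 0.678, 0.480 and 0.804 FPKM in the ACT + IL-2 tumors and 74.8, 106 and 234 FPKM in the ACT + NKTR-214 tumors. It rose by 6.23 ± 0.28 (SE, limma adjusted p = 1.08e-09), with ACT + NKTR-214 tumor 3 highest, the tumor that was also highest in *Alox15*. *Retnla*, another gene of such macrophages, rose by 3.80 (limma adjusted p = 5.82e-08) and *Socs1*, a feedback inhibitor that interferons also induce, by 0.87 (limma adjusted p = 0.00225). *Cd209a* differed by 0.02 and did not pass the threshold.

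**Figure D5:**
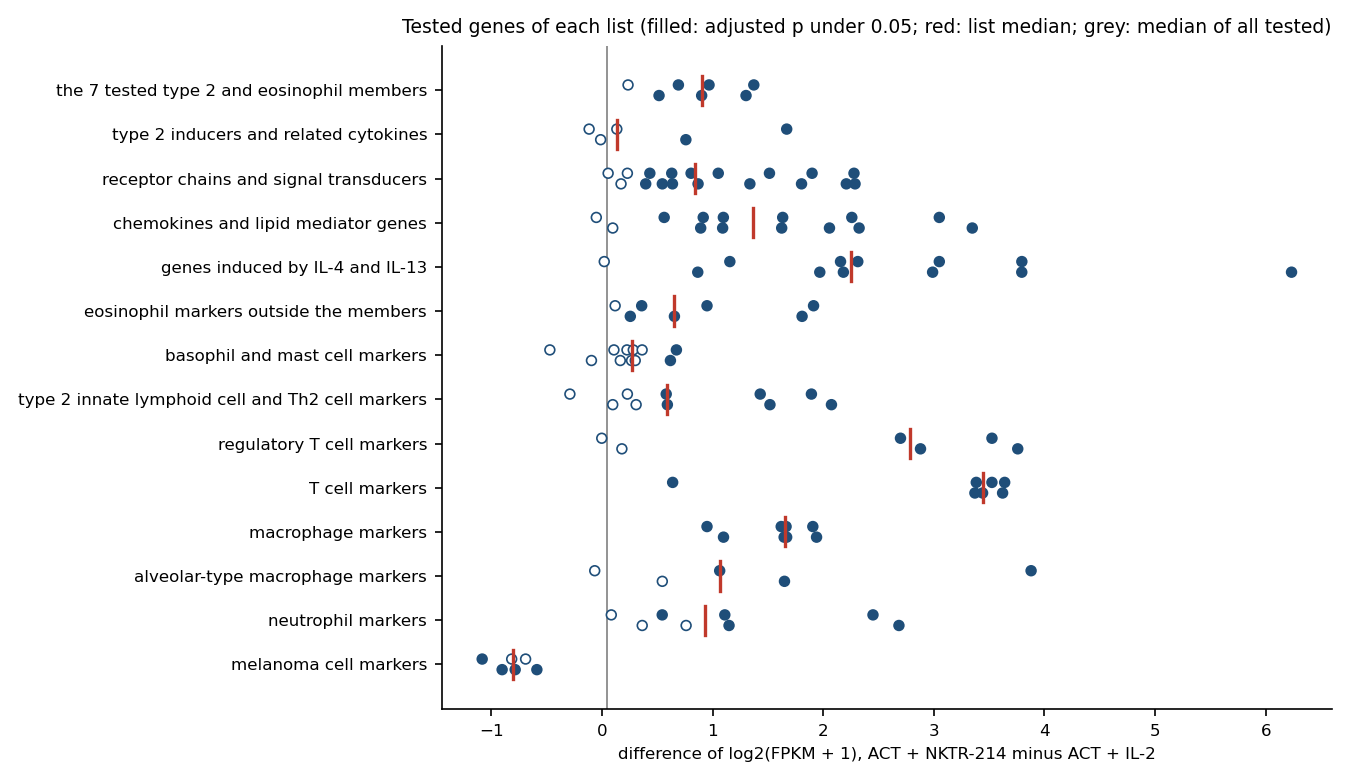
Difference of log2(FPKM + 1), ACT + NKTR-214 minus ACT + IL-2 (horizontal axis), of every tested gene in each list. Filled points passed the limma threshold, red lines are list medians and the grey line is the median of all 14172 entries (0.045); melanoma markers lie to the left of it and T cell markers farthest to the right by median.

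The eosinophil label was set beside 10 further markers. Of the 7 tested, 6 rose and 0 fell, with a median of 0.66. Under quantile normalization 3 were called higher, and after scaling to a common 75th percentile 4. *Ear6*, *Gata1* and *F5* reached the minimum only through the ACT + NKTR-214 tumors, so the count does not support the label. The summed level of the list ran from 21.4 to 56.5 FPKM in ACT + IL-2 and from 77.9 to 120 FPKM in ACT + NKTR-214, nearly all of it *Adgre1* and *Itgam*, which other myeloid cells share. Without these 2 genes, a sum added after the data were seen, the other 8 markers summed to 0.396 to 0.985 FPKM in ACT + IL-2 and 4.51 to 7.43 FPKM in ACT + NKTR-214, most of it from *Ear2* alone. *Ear2*, an eosinophil-associated ribonuclease gene, was 0.527, 0.244 and 0.334 FPKM in the ACT + IL-2 tumors and 3.23, 5.33 and 4.06 FPKM in the ACT + NKTR-214 tumors. It rose by 1.91 (limma adjusted p = 3.53e-07). *Itgam*, an integrin gene that most myeloid cells share, rose by 1.81 (limma adjusted p = 2.95e-05). *Gata1*, a transcription factor gene that eosinophils need, rose by 0.26 (limma adjusted p = 0.0226), a call lost without ACT + IL-2 tumor 3 (limma adjusted p = 0.0568) or ACT + NKTR-214 tumor 1 (limma adjusted p = 0.101) and under quantile normalization (limma adjusted p = 0.0532). *F5* differed by 0.12 and did not pass the threshold. *Prg3*, the closest relative of *Prg2*, gave 1 read in the ACT + IL-2 tumors and 7 in the ACT + NKTR-214 tumors. *Ear10* was listed at 0 in all 6 tumors and *Ear1* in all 3 ACT + IL-2 tumors, and the defining receptor gene *Il5ra* gave 5 reads in all.

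Markers of other cells that express these genes also moved, and their part in the results was not tested. Of 10 type 2 innate lymphoid cell and Th2 cell markers, 6 rose and 0 fell (median 0.59), with summed levels of 17.5 to 26.7 FPKM in ACT + IL-2 and 34.6 to 45.4 FPKM in ACT + NKTR-214. *Ccr4*, one of the 6, reached the minimum only through the ACT + NKTR-214 tumors. *Icos*, a costimulatory receptor gene of T cells and type 2 innate lymphoid cells, rose by 2.07 (limma adjusted p = 1.40e-06) and *Klrg1*, which effector CD8 T cells also carry, by 1.89 (limma adjusted p = 4.21e-06). *Rora*, a factor of type 2 innate lymphoid cells, differed by -0.29 and did not pass the threshold, but was lower under quantile normalization (-0.50, limma adjusted p = 0.0487). *Gata3*, the defining factor of both cell types, named after its values were seen, rose by 1.52 (limma adjusted p = 5.72e-06). This was below the difference of the T cell marker *Cd3d* (3.37), and which cells carried *Gata3* was not tested. *Ptgdr2* (0.10), *Maf* (0.31) and *Il17rb* (0.23) did not pass the threshold.

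Of 13 basophil and mast cell markers, 11 were tested, 2 rose and 0 fell (median 0.27), with summed levels of 6.69 to 12.6 FPKM in ACT + IL-2 and 7.76 to 18.0 FPKM in ACT + NKTR-214. *Hdc*, the histamine-forming enzyme gene, rose by 0.67 (limma adjusted p = 0.00182) and *Mcpt8*, a basophil protease gene that reached the minimum only through the ACT + NKTR-214 tumors, by 0.62 (limma adjusted p = 0.00134). *Gata2* differed by -0.09 and did not pass the threshold. Without ACT + IL-2 tumor 1, 7 of the markers were higher, and without ACT + NKTR-214 tumor 2, 7 were higher and 1 was lower. The calls also depended on the scaling: with 75th percentile scaling 3 markers were higher and 1 lower, and with quantile normalization 1 was higher and 2 lower. Under quantile normalization the *Hdc* call was lost (limma adjusted p = 0.0658) and *Gata2* was lower (-0.35, limma adjusted p = 0.0109). *Kit*, the stem cell factor receptor gene of mast cells and melanocytes, differed by -0.47 (limma adjusted p = 0.0520) and was lower without ACT + IL-2 tumor 2 (limma adjusted p = 0.0379) or ACT + NKTR-214 tumor 2 (limma adjusted p = 0.0197). It was also lower under quantile normalization (limma adjusted p = 0.00402) and under 75th percentile scaling (limma adjusted p = 0.0117).

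The cells that can carry *Siglecf* or *Alox15* without being eosinophils were followed in 3 lists. All 8 macrophage markers rose (median 1.66), with summed levels of 266 to 776 FPKM in ACT + IL-2 and 1034 to 1795 FPKM in ACT + NKTR-214. Without ACT + IL-2 tumor 2 the count was 3. The largest differences were those of *Mertk* (1.94, limma adjusted p = 2.39e-06) and *Cd68* (1.91, limma adjusted p = 3.70e-05). The smallest were those of *Fcgr1* (1.10, limma adjusted p = 0.00311) and *Adgre1* (0.95, limma adjusted p = 0.0223), which eosinophils also carry. The *Fcgr1* call was lost without ACT + IL-2 tumor 2 (limma adjusted p = 0.0734) and the *Adgre1* call without ACT + IL-2 tumor 2 (limma adjusted p = 0.184) or 3 (limma adjusted p = 0.0904), under quantile normalization (limma adjusted p = 0.0761) and under 75th percentile scaling (limma adjusted p = 0.0951). Of 6 alveolar-type macrophage markers, 5 were tested, 3 rose and 0 fell (median 1.06), with summed levels of 25.8 to 69.7 FPKM and 67.1 to 152 FPKM, which overlap. The count was 2 under each of the other scalings. *Fabp4*, a lipid-binding protein gene, named after its values were seen, rose by 1.06 (limma adjusted p = 0.0450), a call lost under 75th percentile scaling (0.142) and quantile normalization (0.126). It was lost as well without ACT + IL-2 tumor 2 (0.257) or 3 (0.136) or ACT + NKTR-214 tumor 1 (0.0525, limma adjusted p). *Car4* (3.88, limma adjusted p = 1.08e-09) and *Itgax* (1.65, limma adjusted p = 8.22e-06) rose, and *Marco*, a scavenger receptor gene, differed by -0.07 and did not pass the threshold. *Pparg* differed by 0.55 (limma adjusted p = 0.0589) and passed without ACT + IL-2 tumor 1 (9.98e-06) or ACT + NKTR-214 tumor 2 (0.0402) or 3 (2.06e-05, limma adjusted p).

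Of 10 neutrophil markers, 8 were tested, 5 rose and 0 fell (median 0.94), with summed levels of 4.80 to 10.4 FPKM in ACT + IL-2 and 25.9 to 54.6 FPKM in ACT + NKTR-214. *S100a9* (2.68, limma adjusted p = 1.17e-05) and *S100a8* (2.45, limma adjusted p = 1.02e-06) rose. *Camp*, a granule gene, differed by 0.08 and did not pass the threshold. *Ngp*, another granule gene, differed by 0.36 (limma adjusted p = 0.0672). It passed without ACT + IL-2 tumor 1 (0.0305) or 3 (0.00577) or ACT + NKTR-214 tumor 1 (0.0283) or 3 (5.29e-05, limma adjusted p).

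All 7 T cell markers rose (median 3.44), with summed levels of 10.5 to 26.0 FPKM in ACT + IL-2 and 142 to 308 FPKM in ACT + NKTR-214. The differences of *Cd2* (3.64, limma adjusted p = 1.45e-07), *Cd3g* (3.62, limma adjusted p = 2.54e-07) and *Cd3d* (3.37, limma adjusted p = 1.11e-07) were each above that of *Cd4* (0.64, limma adjusted p = 0.00234), the coreceptor gene of Th2 cells. Of 6 regulatory T cell markers, cells that can carry ST2, 4 rose and 0 fell (median 2.79), with summed levels of 7.42 to 10.1 FPKM and 60.4 to 102 FPKM. *Il2ra* (3.76, limma adjusted p = 7.88e-10) and *Ctla4* (3.53, limma adjusted p = 3.40e-07) rose, both of which activated effector T cells share. *Ikzf2* (0.18) and the defining gene *Foxp3* (-0.0017) did not pass the threshold, but *Foxp3* was lower under quantile normalization (-0.29, limma adjusted p = 0.0303).

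Of 6 melanoma cell markers, 0 rose and 4 fell (median -0.80), with summed levels of 5314 to 6812 FPKM in ACT + IL-2 and 2644 to 3725 FPKM in ACT + NKTR-214. *Tyrp1* (-1.08, limma adjusted p = 0.0176), *Pmel*, the gp100 gene (-0.90, limma adjusted p = 0.0299), and *Sox10* (-0.59, limma adjusted p = 0.0257) were lower, and *Mlana* differed by -0.69 (limma adjusted p = 0.0526). *Tyr*, the tyrosinase gene, named after its values were seen, fell by 0.78 (limma adjusted p = 0.00465) and passed with any 1 of the 6 tumors left out. The count of 4 was 1 without ACT + IL-2 tumor 3, ACT + NKTR-214 tumor 1 or ACT + NKTR-214 tumor 2. Both other scalings, to the 75th percentile and by quantiles, called all 6 markers lower. The calls of *Tyrp1*, *Pmel* and *Sox10* were lost without ACT + IL-2 tumor 3 (0.0843 for *Tyrp1*, 0.127 for *Pmel* and 0.148 for *Sox10*, limma adjusted p). They were also lost without ACT + NKTR-214 tumor 1 (0.0544, 0.0937 and 0.0659, limma adjusted p) or tumor 2 (0.107, 0.179 and 0.167, limma adjusted p). *Pmel* was lost as well without ACT + NKTR-214 tumor 3 (limma adjusted p = 0.0670), and *Mlana* passed without ACT + IL-2 tumor 2 (limma adjusted p = 0.0476).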

How the data were processed

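Tumor RNA was sequenced as 50-base single-end reads. According to the study's methods, the authors mapped them with HISAT2 2.0.4 to GRCm38 and counted reads per gene with HTSeq. The deposited values are FPKM on the linear scale, scaled by the authors to exon length and mapped fragments, with 1 column per tumor. All 6 columns were used, and 0 columns were unmatched.

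Values were taken as log2(FPKM + 1), as in the study's methods. Entries with a mean FPKM of at least 0.1 entered limma 3.58.1 (R 4.3.3, eBayes with trend, Benjamini-Hochberg, threshold 0.05). The sign is ACT + NKTR-214 minus ACT + IL-2. On simulated data, 195 of 200 changed genes and 8 unchanged genes were called among 14172. The changed genes were drawn from entries at higher levels than most of the tested type 2 and eosinophil genes. Their shifts were also larger, so the share recovered does not apply to genes at low levels. Whole reads were recovered from the steps of low FPKM values, with library totals scaled by GENCODE exon lengths, and 95% intervals of their ratios are exact conditional binomial. Ratios to *Ptprc* used exact two-sided permutation tests (scipy 1.17.1). The paper names a test per gene; limma was used because it shares the variance over genes with 3 tumors per group. Positions come from GENCODE vM21 and promoter windows from RefSeq.

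The genes, the lists and the tests were chosen with earlier results of these data known. Of each list, the text names the 2 tested genes with the largest and the 2 with the smallest log2 difference, and it names the 3 nearest profiles of each tested gene. Genes that flank the 10 genes, the genes of the cytokine cluster and genes listed at 0 were named besides. So were *Prg3*, *Ccl11*, *Gata3*, *Maf*, *Tyr*, *Fabp4*, *Ccr4*, *Ear6*, *Il3ra*, *Csf2ra* and *Il17rb*. Alternatives were another offset, minimum, scaling and variance model, the replicate number as a block, other references for the ratios and each tumor left out.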

Additional observations from a re-analysis of the deposited data

How the results depend on the processing

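The direction of *Il5*, *Il13*, *Il1rl1*, *Siglecf*, *Prg2*, *Ccr3* and *Alox15* was the same under every alternative that tested them, each tumor left out included. The groups did not overlap in these genes, so only 75th percentile scaling and quantile normalization could have changed the direction. Of the 10 genes, 1 was higher with a minimum mean FPKM of 1, which tested only *Alox15*, and 2 (*Il13* and *Siglecf*) with no moderation of the variance. Leaving out each tumor gave 6 to 7. *Ccr3* passed with an offset of 0.1 (limma adjusted p = 0.0334), with no minimum (0.0364), with 75th percentile scaling (0.0499) and without ACT + NKTR-214 tumor 1 (0.0299). It did not pass under quantile normalization (0.13, limma adjusted p = 0.224), eBayes without trend (0.181), no moderation (0.136) or the block (0.0596). Over all entries, 2940 were higher and 1173 lower (71.5% of calls higher). No moderation gave 101 and 27, 75th percentile scaling 3370 and 3501 (49.0% higher) and quantile normalization 2669 and 4549 (37.0% higher), which moved the median of all entries from 0.045 to -0.10. Leaving out each tumor gave 2004 to 3480 higher and 635 to 2003 lower entries: without ACT + IL-2 tumor 2 the lower entries numbered 2003, without ACT + IL-2 tumor 3 635 and without ACT + NKTR-214 tumor 2 682. The cause was not tested.

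The replicate numbers stand for different mice and were not used as pairs in the main fit. Deviations of same-numbered tumors correlated at -0.21, -0.07 and 0.40, which cannot exclude a processing step that they shared. With the replicate block, 3090 entries were higher and 1227 lower, and *Il5*, *Il13*, *Il1rl1*, *Siglecf*, *Prg2* and *Alox15* were called as without it. The block brought *Kit* (limma adjusted p = 0.0419) and *Mlana* (0.0270) past the threshold as lower and *Pparg* (0.00545) and *Ngp* (0.0260) as higher.

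Values near 0 changed sign. Under quantile normalization *Stat5b* (-0.050), *Ptgdr2* (-0.10), *Cd209a* (-0.095), *Ikzf2* (-0.11) and *Camp* (-0.065) did so, and *Stat5b* also under 75th percentile scaling (-0.021). Over the 6 fits that leave out 1 tumor, the range crossed 0 for genes at this level: -0.054 to 0.014 for *Tslp*, -0.29 to 0.033 for *Areg*, -0.040 to 0.13 for *Stat5b*, -0.20 to 0.085 for *Hpgds*, -0.067 to 0.14 for *Cd209a*, -0.053 to 0.053 for *Foxp3*, -0.23 to 0.066 for *Marco* and -0.042 to 0.21 for *Camp*.

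The ratios depended on the reference. Against *Adgre1* the log2 ratio differences were 0.85 for *Il5*, 1.10 for *Il1rl1*, 1.32 for *Siglecf*, 0.076 for *Ccr3* and 1.38 for *Alox15*, where *Ptprc* gave negative values. Against *Cd3e* they were -0.83 for *Il13* and -0.016 for *Prg2*. Relative to *Ptprc* itself, an offset of 1 in place of 0.1 turned *Il13* from 0.62 to -1.46 and *Prg2* from 1.44 to -0.98. Leaving out each tumor gave -0.51 to 0.14 for *Siglecf* and -0.75 to 0.37 for *Alox15*.

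Depth limits *Il4*, *Il5ra* and *Epx*, which rest on 1 or 2 reads in the 3 ACT + IL-2 tumors, and *Prg2* and *Il13* there too. The adjusted p-values of 3 tumors per group lean on variance shared over genes, since with no moderation *Il5*, *Il1rl1*, *Prg2* and *Alox15* did not pass (0.0602 to 0.0887).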
